A study of Mus musculus with 7 samples.

Results

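The genes described here encode factors that shorten, decap, degrade or mark messenger RNA in mouse liver, and the values describe how much, and when, their own transcripts varied over the day. They were taken by gene symbol, as the Cnot, Exosc, Dcp1, Dcp2, Edc, Lsm, Pabpc, Zfp36, Upf, Smg and Tob genes together with Noct (formerly Ccrn4l), Parn, Pan2, Pan3, Xrn1, Xrn2, Khsrp, Elavl1 and Hnrnpd, with the probe set of the highest mean for each gene. Of 75 genes that match, 62 had a mean above 85 units of signal on the natural scale. The study's methods take this level as expressed. Of these 62, 58 are counted here as mRNA decay factors (every tested Lsm gene included), out of 10966 genes tested. The other 4 share only the letters of a prefix and are zinc finger genes of other function (Zfp362 with a mean of 235 units, Zfp366 with 177, Zfp367 with 294 and Zfp369 with 238). Lsmem1, Lsmem2, Smgc and Zfp365 likewise share only a prefix and were below the level. Of the decay factors, 9 were at or below the level, namely Smg8 (mean of 69.2 units), Pabpc1l (53.4), Lsm5 (45.5), Zfp36l3 (42.5), Pabpc5 (36.1), Pabpc4l (32.7), Pabpc1l2b (27.8), Pabpc6 (21.4) and Pabpc2 (18.1). Those just above it were Lsm11 (85.2 units), Exosc3 (95.9) and Lsm2 (116). Pabpc4 and Exosc6 lie only on probe sets that carry several symbols and were not analysed here.

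Liver RNA was hybridised to Mouse Gene 1.0 ST arrays of Affymetrix every 4 h from ZT02 to ZT26, where Zeitgeber time (ZT) counts the hours after lights on. The animals were C57/BL6 males, whose age the labels give as 9 to 11 weeks at housing (the methods give a somewhat higher age, at sacrifice). They had lived for 2 weeks under 12 h of light and 12 h of dark and had been given food only between ZT12 and ZT24 for 7 days, so that all groups share the same strain, light cycle and restricted feeding, with no genetic change and no untreated group. Each array held 1 pool to which 5 livers, perfused with PBS, gave 500 ng of RNA apiece. A time point is therefore 1 array with no replicate, the variation between animals within a time point cannot be seen, and ZT26 has the same clock hour as ZT02. Medians over the tested probe sets lay between 8.31 (ZT02) and 8.40 (ZT26) on the log2 scale. Of 8 hepatocyte markers listed, 6 were tested, and these summed to between 72140 and 75159 units on every array. Abundant genes weigh most in this sum. Hnf4a, the marker of lowest mean among the 6, ran from 4049 units at ZT26 to 6113 at ZT14.

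Most mRNAs in the cytoplasm are first shortened at the poly(A) tail, by the Pan2 and Pan3 enzyme and by the CCR4-NOT complex. The body of the message is then decapped by the Dcp1 and Dcp2 enzyme and digested from the 5′ end by Xrn1, or digested from the 3′ end by the exosome. Proteins such as Zfp36 (tristetraprolin), Khsrp and Hnrnpd (AUF1) bind AU-rich elements and bring these enzymes to short-lived messages, whereas Elavl1 (HuR) protects them, and the Upf and Smg proteins send messages with a premature stop codon to decay. Because the steady state of a transcript depends on synthesis and decay together, a short half-life lets a transcript follow a daily rhythm of synthesis closely.

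The log2 profile of each gene was described by a cosine of 24 h, whose amplitude runs from the mean to the peak and whose fold is the ratio of its crest to its trough. The p-values weigh the size of the fitted cosine against the scatter of the 7 pools around it. A single decay factor had an adjusted p under 0.05 with limma's moderated F-test, which is what is meant below by passing the test or being called. This was Noct, 1 of 58 (1.72%), where 4.54% of all tested genes were called. At an unadjusted p under 0.05 there were 9 of 58 (15.5%), where 26.1% of all tested genes had such a value. These were Noct, Cnot6l, Cnot7, Exosc9, Hnrnpd, Pan2, Upf1, Xrn2 and Zfp36l1. A fitted fold above 1.5 was found for 3 of 58 (Noct, Zfp36 and Zfp36l1; 5.17% beside 8.91% of all genes). By the ratio of the highest to the lowest array, 9 of 58 exceeded 1.5-fold, which is 15.5% beside 16.6% of all genes. The thresholds of the study's methods, a p under 0.25 and a fold above 1.5, were applied to the mRNA values only. With the p of an ordinary F-test of the cosine and the ratio of highest to lowest array, they took 7 of 58 (12.1% beside 13.8%). The study also selected on the signal of RNA polymerase II, which was not used here.

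The median amplitude of the 58 factors was 0.086 in log2, beside 0.094 over all tested genes, with quartiles of 0.043 and 0.15. The upper end of the 95% interval of the fold was under 1.5 for 45 of them (77.6%, beside 72.9% of all genes), so that for these genes the interval leaves out a daily cosine of 1.5-fold or more. Summed over the 58 genes, the signal stayed between 31774 units (ZT02) and 33638 units (ZT10). This is a 1.06-fold range, beside 1.02-fold for the sum over all tested genes, and abundant genes weigh most in such sums. Fitted peaks fell between ZT4 and ZT8 for 16 factors (27.6%, beside 16.9% of all genes) and between ZT8 and ZT12 for 12 (20.7%, beside 16.2%), but the standard error of the peak was under 2 h for only 28 of the 58 and reached 17.9 h for the flattest profile.

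**Figure D1:**
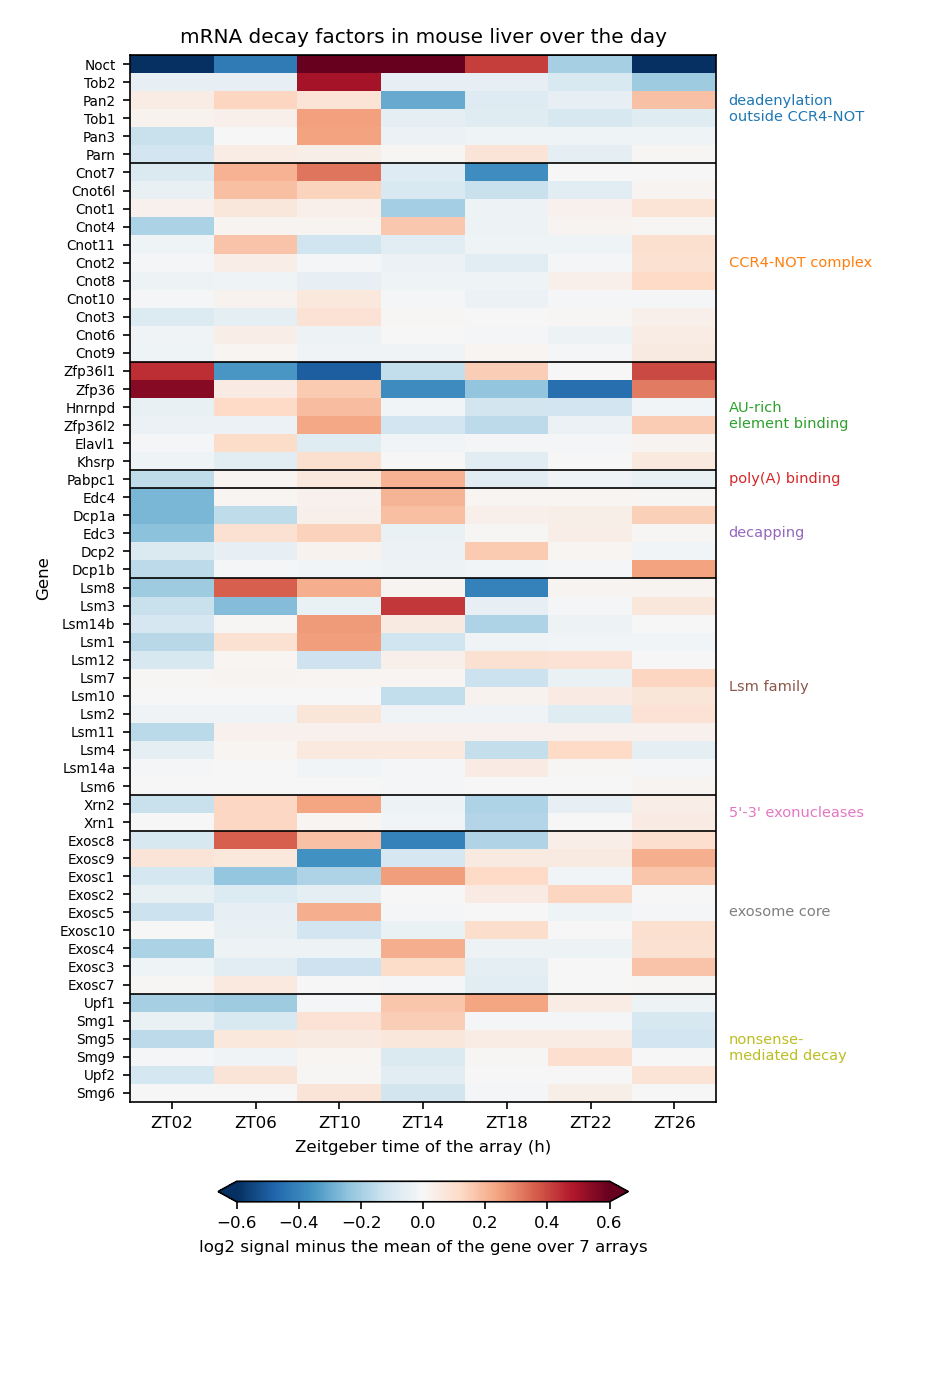
Each row is 1 of the 58 decay factors and each column 1 array, with the colour giving the log2 signal minus the mean of that gene over the 7 arrays and genes ordered by amplitude within their group. The colour scale ends at 0.6 in either direction, which Noct exceeds at ZT02, ZT10, ZT14 and ZT26, while most rows stay pale.

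**Figure D2:**
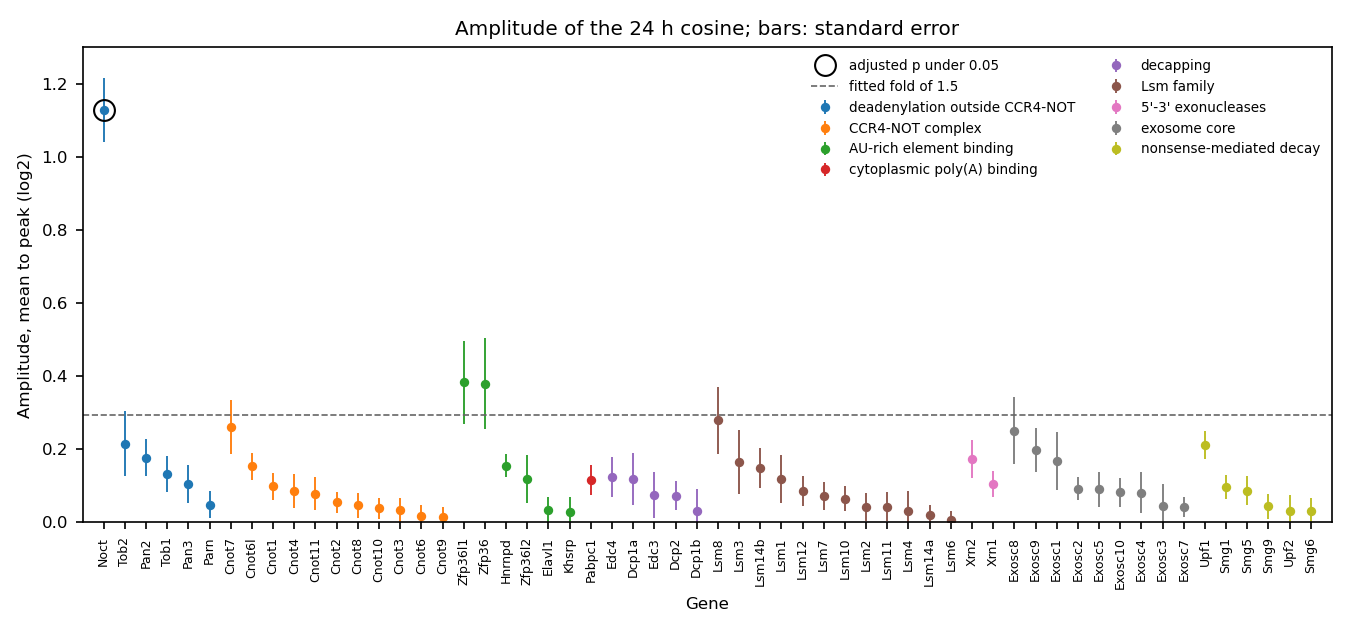
Amplitude of the fitted cosine (log2, from mean to peak) with its standard error for each factor, coloured by group; the dashed line marks a fitted fold of 1.5 and the circle an adjusted p under 0.05. Noct stands at 1.13, Zfp36l1 and Zfp36 at 0.38, and all others lie below the line.

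The 250 bases before the start of Noct, Zfp36 and Zfp36l1, the 3 factors past 1.5-fold, are shown because these windows were searched for the binding sites of clock, cyclic AMP and serum response factors. They are from RefSeq on GRCm38.p6, written 5′ to 3′ on the strand of the gene, at chr3:51224197-51224446 (plus strand), chr7:28379229-28379478 (minus strand) and chr12:80113014-80113263 (minus strand). Capitals mark a serum response element, the site of the serum response factor that drives immediate early genes.

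Noct: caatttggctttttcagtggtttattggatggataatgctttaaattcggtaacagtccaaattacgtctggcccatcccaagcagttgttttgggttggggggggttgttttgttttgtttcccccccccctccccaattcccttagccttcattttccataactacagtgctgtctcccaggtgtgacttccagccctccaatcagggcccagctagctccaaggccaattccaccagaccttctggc

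Zfp36: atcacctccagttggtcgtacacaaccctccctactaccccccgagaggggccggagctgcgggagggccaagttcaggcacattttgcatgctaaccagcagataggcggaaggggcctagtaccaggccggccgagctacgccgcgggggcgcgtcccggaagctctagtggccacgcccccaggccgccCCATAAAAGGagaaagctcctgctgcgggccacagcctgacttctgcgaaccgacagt

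Zfp36l1: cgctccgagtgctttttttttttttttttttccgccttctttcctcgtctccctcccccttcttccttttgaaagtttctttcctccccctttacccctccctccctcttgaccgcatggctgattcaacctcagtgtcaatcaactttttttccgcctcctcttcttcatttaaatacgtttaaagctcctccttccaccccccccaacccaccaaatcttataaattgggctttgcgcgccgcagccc

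Windows of 300 bases (250 before and 50 after the start) were searched on both strands for the letters of the E-box CACGTG, the D-box TTATGTAA or TTACATAA, the cyclic AMP element TGACGTCA, the serum response element and the ROR element. RefSeq held 57 such windows for 48 of the 58 factors. An E-box was found in 4 of the 57 (7.02%; Cnot4, Exosc5, Hnrnpd and Xrn2), beside 7.15% of all 32851 windows. The serum response element was found in 2 (3.51%; Zfp36, where it begins 58 bases before the start, and Hnrnpd), beside 1.63% of all windows. The cyclic AMP element was found in 1 (1.75%; Lsm2, beside 1.79%), and no window of a decay factor held the D-box letters (0.938% of all windows) or the ROR element (0.499%). Neither the Noct nor the Zfp36l1 window held any of these letters.

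Noct encodes nocturnin, which belongs to the same nuclease family as the catalytic CCR4 subunits. It was long studied as a deadenylase and has since been shown to act on NADP(H). It lies at chr3:51224447-51251654. Its signal was 162 units at ZT02, 238 at ZT06, 628 at ZT10, 775 at ZT14, 427 at ZT18, 279 at ZT22 and 152 at ZT26. Both arrays of the early light phase were thus the lowest, and the values climbed to a maximum just after lights off and declined through the night. The fitted change was 4.77-fold (95% interval 3.56 to 6.40), with an amplitude of 1.13 (SE 0.09), a peak at ZT13.7 (SE 0.34 h) and an adjusted p of 0.0106 by limma. ZT26 was 0.09 below ZT02 on the log2 scale. With each array left out in turn the amplitude stayed between 1.07 and 1.20, whereas the adjusted p ranged from 0.00783 to 0.0728 and passed 0.05 without ZT02 (0.0646) and without ZT14 (0.0728). Over the 13 clock and clock output genes used as a reference, 10 were called (76.9%, beside 4.54% of all tested genes). Among them were Dbp (peak at ZT10.9, SE 0.34 h), Tef (ZT12.3, SE 0.50 h) and Per3 (ZT12.6, SE 0.59 h). Hlf (ZT13.8, SE 0.56 h) and Per2 (ZT15.1, SE 0.18 h) were called too, and the other called genes peaked earlier or later than these. Per1 (ZT13.3), Cry2 (ZT13.9) and Clock (ZT23.1) were not called.

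**Figure D3:**
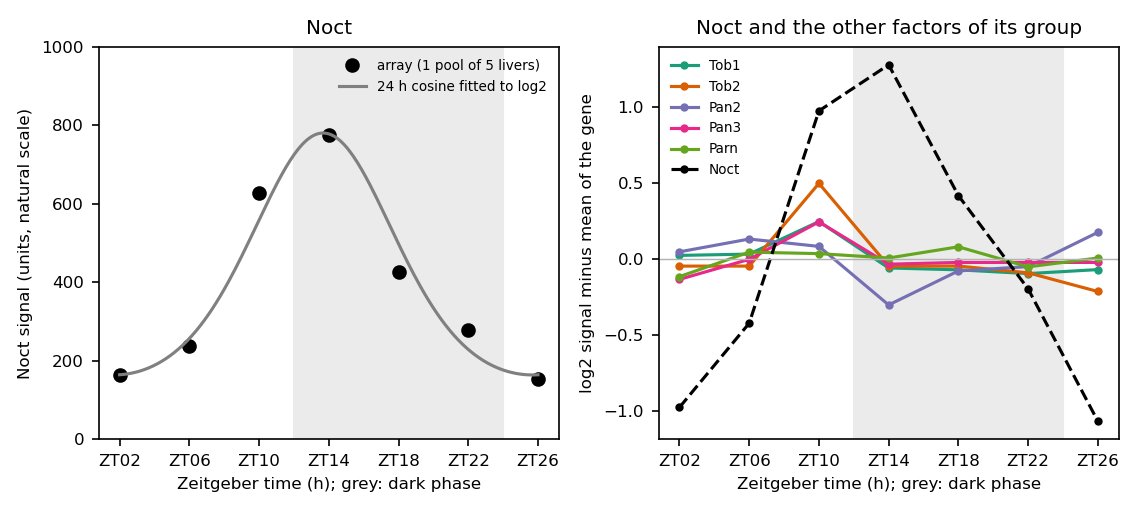
Left, Noct signal in units on the natural scale by Zeitgeber time, with 1 point per array and the cosine fitted to the log2 values as a line. Right, log2 signal minus the mean of each gene for Noct (dashed) and the other 5 factors of its group, of which Tob1, Tob2 and Pan3 have their highest array at ZT10.

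The other deadenylation factors outside the CCR4-NOT complex did not pass the test. Pan2 and Pan3 form the enzyme that trims long tails first. Pan2, the catalytic subunit, was at 857, 908, 878, 672, 785, 801 and 937 units from ZT02 to ZT26, which places its lowest array at ZT14, where Noct was highest (1.28-fold, 95% interval 1.08 to 1.51, peak at ZT4.28, adjusted p = 0.156 by limma). Pan3, which anchors Pan2 to messages, had 447 units at ZT10 and between 344 and 376 on the other arrays (adjusted p = 0.409). Parn, a poly(A)-specific ribonuclease that acts mostly on nuclear and noncoding RNA, varied 1.15-fold between its lowest and highest array, with a fitted fold of 1.07 and an upper bound of 1.20. Tob1 and Tob2 are antiproliferative adaptors that tie CCR4-NOT to poly(A)-binding protein. Tob2 was at 229 units at ZT10, at 157 on each of ZT02, ZT06, ZT14 and ZT18, at 152 at ZT22 and at 140 at ZT26, so that its 1.64-fold range rests on the array of ZT10. Tob1 was also highest at ZT10, with 2118 units beside 1671 to 1826 elsewhere (adjusted p = 0.311 for Tob2 and 0.254 for Tob1).

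The CCR4-NOT complex is the main cytoplasmic deadenylase and consists of a Cnot1 scaffold that carries a CAF1 nuclease (Cnot7 or Cnot8) and a CCR4 nuclease (Cnot6 or Cnot6l). None of its 11 tested genes passed the test, and their median amplitude was 0.055. Cnot7 was at 488 units at ZT02, 599 at ZT06, 648 at ZT10, 491 at ZT14, 401 at ZT18 and 519 at both ZT22 and ZT26. It was highest in the second part of the light phase and lowest in the middle of the night, with a fitted fold of 1.44 (1.13 to 1.83), a peak at ZT7.54 (SE 0.95 h) and an adjusted p of 0.148 by limma. Without ZT22 this p was 0.0470, and over all arrays left out in turn it ranged up to 0.398. Cnot6l showed its highest arrays at the same times, with 1012 units at ZT06 and 980 at ZT10 beside 812 to 903 on the others (1.24-fold, peak at ZT7.17, SE 0.84 h, adjusted p = 0.112).

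Cnot8 and Cnot6, the paralogs of these nucleases, were looked at after the values were seen. Cnot8 lay between 402 and 453 units (upper bound of the fold 1.20) and Cnot6 between 692 and 730 (1.13), and whether they differ from Cnot7 and Cnot6l was not tested. Cnot1, the scaffold, was at 1892 units at ZT14 and between 2133 and 2309 on the other arrays (1.15-fold, adjusted p = 0.268). The lowest Cnot1 and the lowest Pan2 arrays are thus the same.

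The AU-rich element binding proteins held the largest amplitudes after Noct. Zfp36, the tristetraprolin gene at chr7:28376784-28379228, whose product recruits CCR4-NOT to cytokine and growth factor messages, was at 932 units at ZT02, 659 at ZT06, 711 at ZT10, 491 at ZT14, 541 at ZT18, 466 at ZT22 and 790 at ZT26. The 4 arrays of the light phase (ZT02, ZT06, ZT10 and ZT26) were all above the 3 of the dark phase. The fitted fold was 1.69 (1.12 to 2.55) with a peak at ZT4.86 (SE 1.26 h), and the adjusted p was 0.200 by limma. Zfp36 is itself an immediate early gene. Of 20 immediate early genes listed beside it, 12 were tested and 1 was called (8.33%, beside 4.54% of all tested genes). This was Egr1 (6.85-fold, peak at ZT3.02, adjusted p = 0.0247 by limma). The summed signal of the 12 was highest at ZT02 (5484 units) and lowest at ZT22 (3822), the same 2 arrays as for Zfp36. Their mean log2 deviation was also highest at ZT02 (0.387) but lowest at ZT14 (-0.229), with -0.206 at ZT18 and -0.195 at ZT22. Egr1 was likewise lowest at ZT14 (75.2 units). Of the list, 8 genes, Fos among them (61.4 units), were at or below 85 units. The part of the immediate early response in the Zfp36 values was not tested.

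Zfp36l1, a paralog that binds the same elements, at chr12:80107760-80113013, was at 1705 units at ZT02, 984 at ZT06, 889 at ZT10, 1132 at ZT14, 1388 at ZT18, 1252 at ZT22 and 1649 at ZT26. It was highest on both arrays of the early light phase and lowest 4 and 8 h later, with a fitted fold of 1.70 (1.17 to 2.48), a peak at ZT22.8 (SE 1.11 h) and an adjusted p of 0.164 by limma. Markers of other liver cells moved over the same arrays. Of 12 Kupffer cell markers (resident macrophages), 11 were tested and 6 of these were called (54.5%, beside 4.54% of all tested genes). An unadjusted p under 0.05 was found for 10 (90.9%, beside 26.1%), and Marco (73.4 units) was below the level. The summed signal of the 11 was lowest at ZT10 (5941 units) and highest at ZT26 (9318). The defining marker Clec4f ran from 643 units at ZT10 to 1021 at ZT26. Lymphocyte markers (3 of 9 tested) were also lowest at ZT10 (328 units) and highest at ZT26 (495), Sox9, the only tested one of 5 cholangiocyte markers, ran from 190 units at ZT10 to 449 at ZT26, and 8 endothelial markers ran from 6190 at ZT06 to 7936 at ZT22. Of 7 stellate cell markers 6 had an unadjusted p under 0.05 (85.7%, beside 26.1%) and 1 was called (14.3%, beside 4.54%). The sum of the 7 was lowest at ZT10 (6714 units) and highest at ZT22 (8090). None of the 7 neutrophil markers was above 85 units. The part of other cells in the Zfp36l1 values was not tested, and in bulk liver fewer cells of a type and less RNA per cell cannot be told apart.

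Zfp36l2, the remaining expressed paralog, had its highest array at ZT10 (991 units) and its lowest at ZT18 (758), with an upper bound of the fold of 1.47. The 3 paralogs thus had their lowest arrays at ZT22, ZT10 and ZT18, and the differences between them were not tested. Hnrnpd was at 488, 547, 573, 497, 466, 465 and 497 units from ZT02 to ZT26, a small change with little scatter (1.24-fold, 1.12 to 1.38, peak at ZT8.51, SE 0.68 h, adjusted p = 0.0725). Khsrp (1.04-fold, upper bound 1.19) and Elavl1 (1.05-fold, upper bound 1.18) were nearly flat.

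**Figure D4:**
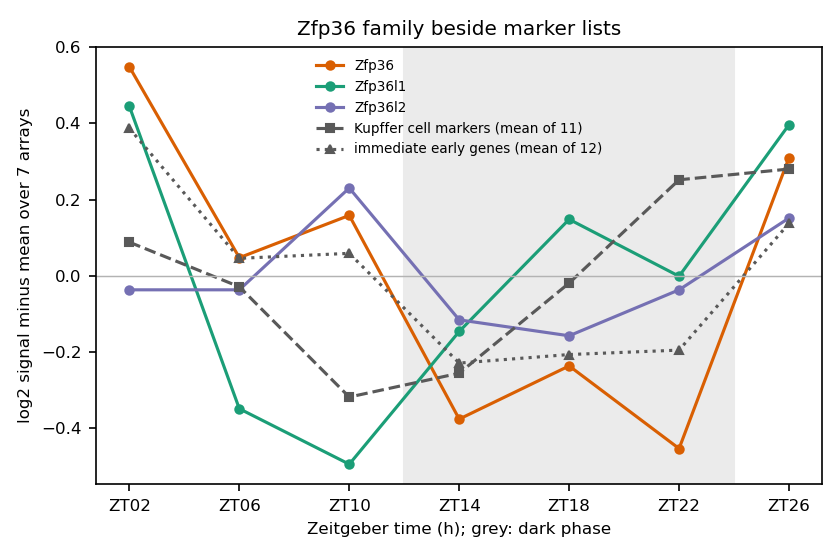
Log2 signal minus the mean over 7 arrays for Zfp36, Zfp36l1 and Zfp36l2 by Zeitgeber time (colours), beside the mean of 11 Kupffer cell markers and of 12 immediate early genes (grey). Zfp36 and the immediate early genes are highest at ZT02, and Zfp36l1 and the Kupffer cell markers are lowest at ZT10.

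Pabpc1, the poly(A)-binding protein that coats the tail, was the only gene of its family above the level on a probe set of a single symbol. It was at 2595, 2907, 3016, 3338, 2759, 2844 and 2807 units from ZT02 to ZT26, with its highest array at ZT14 (1.17-fold, 1.02 to 1.35, adjusted p = 0.247).

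None of the 5 decapping genes passed the test (median amplitude 0.075, all upper bounds under 1.5), and all were lower at ZT02 than at ZT26, the array of the same clock hour. Edc4, the scaffold that joins the decapping enzyme and Xrn1, was at 261 units at ZT02 and between 316 and 363 on the other 6 arrays. Dcp1a, the activator of the enzyme, was at 135 units at ZT02 and 180 at ZT26, and Edc3, an enhancer of decapping, at 388 and 462. The median difference between ZT26 and ZT02 was 0.28 in log2 for the 5, beside 0.04 over all tested genes and 0.10 over the 58 factors. ZT26 was the higher for 49 of the 58 (84.5%), beside 63.5% of all tested genes. For Dcp1a the difference of 0.42 at the same clock hour was larger than the fitted change from trough to crest (1.18-fold, adjusted p = 0.520). The same held for Dcp1b (difference 0.40, fitted fold 1.04), Edc3 (0.25, 1.11) and Edc4 (0.28, 1.19), but not for Dcp2 (0.07, 1.11). Across the exosome genes ZT26 was likewise the higher for 9 of 9, with a median difference of 0.14.

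**Figure D5:**
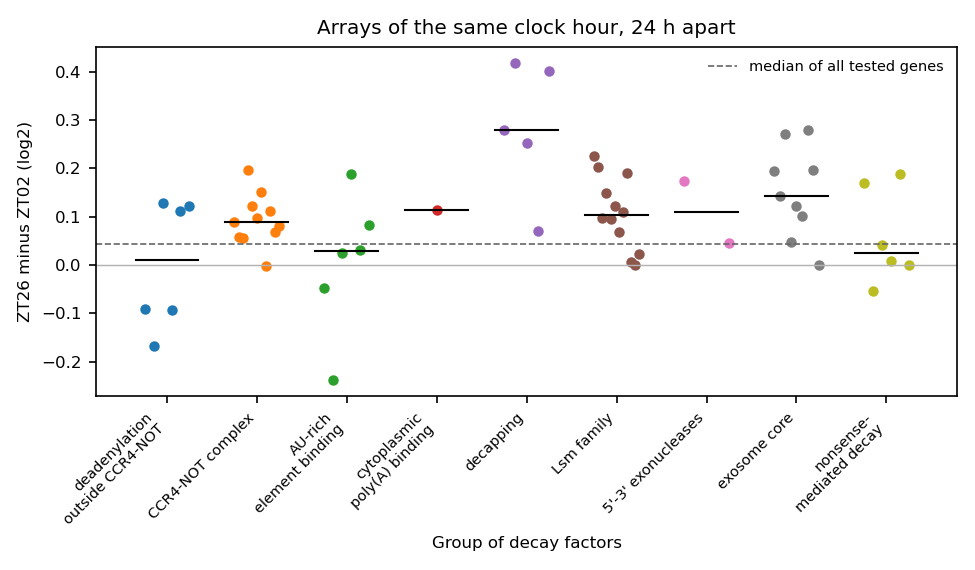
Difference between the ZT26 and the ZT02 array (log2), with 1 point per gene by group, the group median as a black line and the median of all tested genes as a dashed line. The decapping group has the highest median, at 0.28, although 1 of its 5 genes lies at 0.07.

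Several of the Lsm proteins, though not every gene with the symbol, form rings around U-rich ends. The cytoplasmic ring with Lsm1 promotes decapping and the nuclear ring with Lsm8 binds U6 RNA in splicing. None of 12 tested genes passed the test. Lsm8 was at 174, 259, 234, 204, 152, 204 and 204 units from ZT02 to ZT26, highest at ZT06 and lowest at ZT18 (1.47-fold, 1.09 to 2.00, peak at ZT7.75, adjusted p = 0.205). Lsm3, shared by both rings, was at 276 units at ZT14 and between 172 and 216 on the other arrays, so that its 1.60-fold range rests on 1 array. Lsm14b, of a family found in P-bodies, was highest at ZT10 (416 units, beside 306 to 361; adjusted p = 0.252), and Lsm12 ran from 2586 to 2999 units (1.13-fold).

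Xrn1 is the cytoplasmic exonuclease that digests decapped messages and Xrn2 its nuclear counterpart, which helps to end transcription. Xrn2 was at 531, 635, 689, 571, 514, 563 and 600 units from ZT02 to ZT26 (1.27-fold, 1.07 to 1.51, peak at ZT8.32, SE 1.02 h, adjusted p = 0.176). Xrn1 stayed between 259 and 318 units with its lowest array also at ZT18 (1.16-fold, adjusted p = 0.228).

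The exosome degrades RNA from the 3′ end through a core of 9 proteins with attached nucleases. None of 9 tested genes passed the test. Exosc8 was highest at ZT06 (392 units) and lowest at ZT14 (231), with a fitted fold of 1.42 (1.05 to 1.92) and a peak at ZT5.38 (adjusted p = 0.245). Exosc9, which like Exosc8 belongs to the core, had its lowest array at ZT10 (180 units, beside 217 to 270 on the others) and a peak at ZT23.6 (adjusted p = 0.176). Exosc1 was highest at ZT14 (822 units) and lowest at ZT06 (588), and its peak lay at ZT18.3 (adjusted p = 0.388). Among these 3 members of the core the fitted peaks thus lay in the night for Exosc1 and Exosc9 and in the light phase for Exosc8. The amplitudes were small, and whether the peak times differ was not tested. Exosc10, the nuclear nuclease of the exosome, ran from 663 to 773 units (1.12-fold, upper bound 1.28).

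Upf1, the helicase at the centre of nonsense-mediated decay, came nearest to the threshold after Noct. It was at 442 units at ZT02, 439 at ZT06, 505 at ZT10, 570 at ZT14, 599 at ZT18, 523 at ZT22 and 497 at ZT26. The lowest arrays were ZT02 and ZT06 and the highest were ZT14 and ZT18. At the same clock hour ZT26 was 0.17 above ZT02 on the log2 scale. The fitted fold was 1.34 (1.18 to 1.52) with a peak at ZT16.9 (SE 0.69 h) and an adjusted p of 0.0562 by limma, which was 0.0277 with each array centred on its median, 0.0690 with ZT02 and ZT26 averaged, 0.0841 on the natural scale and between 0.0715 and 0.178 with each array left out in turn. Smg1, the kinase that phosphorylates Upf1, had its highest array at ZT14 (700 units, beside 591 to 671; 1.14-fold, peak at ZT13.9, adjusted p = 0.218). Smg5, which acts on phosphorylated Upf1, was at 299 units at ZT02, 308 at ZT26 and between 344 and 349 on the other arrays (1.13-fold, adjusted p = 0.357).

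A list of 69 further genes of mRNA decay and its regulation (among them Argonaute, Tnrc6, Cpeb, Btg and terminal nucleotidyltransferase genes) was examined in the same fit. Of 64 tested, 3 were called (4.69%, beside 4.54% of all genes) and 20 had an unadjusted p under 0.05 (31.2%, beside 26.1%), with a median amplitude of 0.11, beside 0.094. Pnrc1, a nuclear coactivator that binds the decapping enzyme, was at 1491, 978, 707, 555, 1032, 1290 and 1325 units from ZT02 to ZT26 and changed 2.42-fold, with a peak at ZT0.32 (SE 0.45 h, adjusted p = 0.0227 by limma). Btg1, of the same family as Tob1 and Tob2 and a partner of Cnot7, was at 1608, 1236, 1055, 756, 1245, 1604 and 1589 units and changed 1.95-fold with a peak at ZT0.56 (SE 0.61 h, adjusted p = 0.0366). Both were lowest at ZT14, the time of the highest Noct array. Tent4a, a noncanonical poly(A) polymerase whose mixed tails slow deadenylation, was at 355, 436, 514, 735, 572, 487 and 428 units and changed 1.73-fold with a peak at ZT14.9 (SE 0.67 h, adjusted p = 0.0424), and was thus highest on the same array as Noct.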

How the data were processed

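Mouse liver RNA was measured at 7 times on 1 array per time, each from a pool of 5 livers. The log2 values were deposited by the authors after RMA in Affymetrix Expression Console 1.1.2637.26569 (submitters' processing notes), which subtracts background, normalizes across arrays and summarizes probes. Units on the natural scale are 2 to the power of these values. Probe sets were named from the platform annotation (21789 of 35556 with 1 symbol, 1621 with several and 12146 not named). Updating symbols through Entrez identifiers (21698 matched) changed 0. Exact positions and promoter windows are from RefSeq (GRCm38.p6). The number of arrays limits the precision.

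Cosine and sine terms of 24 h were fitted to these values in R 4.3.3 by limma 3.58.1 (lmFit and eBayes, moderated F-test, 4 residual degrees of freedom), with Benjamini-Hochberg adjustment over the 12076 single-symbol probe sets above 85 units. Of these 540 were called. Per gene the probe set with the highest mean was used (5 factors have more than 1). Intervals are 95%, for the scatter around the cosine only. The fit was tested on simulated data with rhythms of known amplitude, 50 at each amplitude. At an adjusted p under 0.05 it recovered 36% of those with an amplitude of 0.25 and 76% at 0.5. At amplitudes of 1 and 2 it recovered 96% and 100%, so that small rhythms were often missed. Groups came from the labels' times and no batch was given.

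The members, the lists and the alternatives were chosen with earlier results of these data known. Genes named are those called, those whose highest array exceeded 1.5 times the lowest, in each group the 3 largest amplitudes and the highest mean, the genes listed by full name, the Zfp36 and Tob families, and the related factors called. Alternatives were the minimum level, each array left out, ZT02 and ZT26 averaged, centring, the natural scale, other probe sets, limma with trend, the ordinary F-test and the methods' thresholds.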

Additional observations from a re-analysis of the deposited data

How the results depend on the processing

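The number of decay factors called was 1 (Noct) with no minimum level, with ZT02 and ZT26 averaged, with the mean over probe sets or the lowest probe set of a gene, with limma's trend, with adjustment over 1 probe set per gene and with symbols as annotated. It was 2 (Noct and Upf1) with a minimum of 170 units and with arrays centred on the median, 0 with the cosine on the natural scale and 0 with the ordinary F-test, and 7 by the methods' thresholds. At an unadjusted p under 0.05 there were 6 factors with limma on the natural scale and 5 with the ordinary F-test, beside 9 with limma on the log2 scale. With each array left out the number called by limma ranged from 0 (without ZT02, where 9 had an unadjusted p under 0.05, and without ZT14, where 8 had) to 2 (without ZT22, Noct and Cnot7). For Noct the adjusted p was 0.0718 on the natural scale and 0.0474 with ZT02 and ZT26 averaged. Factors past 1.5-fold were 3 with a minimum of 170 units, no minimum, centring, averaging, the natural scale and other probe sets, 9 by highest over lowest array, and 3 to 6 with each array left out (5 without ZT02, 6 without ZT22). The median amplitude ran from 0.0818 to 0.107 over the arrays left out. Over 32 named factors, 348 recomputed fits stayed on their side of the threshold, 3 (Noct) lost the call and 2 (Cnot7 without ZT22, Upf1 with centring) gained it. These fits covered each array left out, averaging, centring, the natural scale, limma with trend and another Cnot1 probe set. The ordinary F-test and the minimum of 170 units, given above, were not among them. The peak time moved by over 6 h in 1 of the 353 fits (Khsrp, to ZT23.8 without ZT10), and that of Elavl1 moved to ZT22.2 without ZT06. Neither gene was called.

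No paired analysis was possible because each time has 1 array and the labels carry no replicate numbers. The 7 pools leave 4 residual degrees of freedom, and the step of 4 h does not resolve brief peaks. Total RNA levels do not show half-lives, poly(A) tail length, protein or enzyme activity.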

Other observations

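The deposited values of some probe sets are the same to the last digit on several arrays. Among the 58 decay factors, 33 (56.9%) had the same value on at least 2 arrays and 15 (25.9%) on at least 3, beside 47.3% and 23.4% of all tested genes. Lsm11 had 1 value on 6 of the 7 arrays (86.8 units, and 76.0 at ZT02), and Lsm6, Lsm2 and Tob2 had 1 value on 4 arrays.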
